A study of Mus musculus with 6 samples.

Results

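The genes described here move, store and sense iron, copper and zinc. They are the protein-coding rows named for the zinc transporter families Slc39a and Slc30a, for the Steap metalloreductases, or for one of a fixed set of iron, copper and metallothionein genes. The set comprised 45 of the 15836 genes of the deposited table, of which 12968 are protein-coding. Iron handling had 18 members, copper 6 and zinc 21. Heph, Slc39a5, Slc39a12, Slc30a2, Slc30a3, Slc30a8 and Slc30a10, which the names would also take in, were not analysed here.

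RNA was sequenced from a cultured mouse line labelled CAF, from a pancreatic tumour. The 3 control libraries (NC) carry the genotype wt and the treatment control. The 3 MAOA-KO libraries (KO) carry the genotype MAOA ko and the treatment MAOA knockout, although their descriptions speak of a knockdown group. The labels give neither the number of clones nor whether the replicates of a group are separate cultures, so p-values measure only the spread between these libraries.

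Free iron and copper generate radicals, and cells keep all 3 metals bound to carriers, storage proteins and chaperones. Iron enters most cells as transferrin bound to its receptor, is reduced in the endosome, stored in ferritin and leaves through ferroportin, which works with copper-containing ferroxidases. Zinc is moved into the cytosol by ZIP transporters (Slc39a) and out of it by ZnT transporters (Slc30a), and metallothioneins bind what is free.

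Library totals ran from 18631359 to 26645441 counts, so that 3 counts correspond to 0.110 to 0.156 CPM. CPM here means each count relative to its library total, scaled by trimmed-mean (TMM) factors, and these floors cover counting error only. The row named Maoa fell, from 49.0 ± 0.922 CPM in the controls to 24.9 ± 0.639 CPM in MAOA-KO (SD, n = 3). The table places that row on chromosome 19 whereas Maoa lies on chromosome X, so the row gives no sure check of the knockout. All 45 metal rows list the locus of the gene they name. Of the 11 fibroblast markers with a row, 9 lay between 0 and 2.43 CPM in every library, among them Col1a1 at 0.417 to 2.04 CPM, Pdgfra at 0.469 to 1.56 and Dcn at 0.205 to 0.642. The other two were Acta2, which rose from 30.9 ± 1.07 to 45.9 ± 0.859 CPM, and the mesenchymal filament gene Vim, which fell from 3426 ± 73.8 to 1789 ± 30.1 CPM. Of the epithelial markers, Epcam, Cdh1, Cldn4 and Muc1 lay between 0 and 2.83 CPM, and of these Muc1 rose from 0.701 ± 0.101 to 1.38 ± 0.166 CPM. The keratins Krt8 and Krt18 were abundant, at 437 to 953 CPM, and fell 1.91-fold and 1.31-fold, while Krt19 and Krt7 fell 4.06-fold and 7.01-fold. Summed over the markers with a row, fibroblast genes (11 of 13 listed) lay at 3378 to 3516 CPM in the controls and 1821 to 1874 CPM in MAOA-KO, nearly all of it Vim. Epithelial genes (8 of 8) lay at 2103 to 2232 and 1214 to 1286 CPM, and the part of either in the results was not tested. In such bulk libraries fewer cells of a type and less RNA per cell cannot be told apart.

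The quasi-likelihood test of edgeR called 37 of the 43 metal genes it could test at an adjusted p of 0.05, 19 as higher and 18 as lower in MAOA-KO. This is 86.0% of them, against 73.9% of all 13243 genes tested, 37.0% higher and 36.9% lower. The median log2 fold change was 0.05 over the metal genes and 0.0041 over all genes. Absolute log2 fold changes of at least 1 were reached by 7 members, 16.3% against a background of 14.0%. Of these, 5 were higher, where the background is 7.47%, and 2 lower, where it is 6.56%. Separate ranges in the groups were seen for 34 of the 43, or 79.1% against 75.1%. Against a 1.2-fold change 20 members passed, where the background is 45.9%. The number of changed members was thus not far from that of the table at large, and the account below turns on which members changed and by how much. An exact permutation test of 3 against 3 libraries cannot give a two-sided p under 0.1 for any single gene. Atp7b, with 1 to 6 counts per library, and Slc39a2, with 1 to 11, did not pass the filter on low counts.

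**Figure D1:**
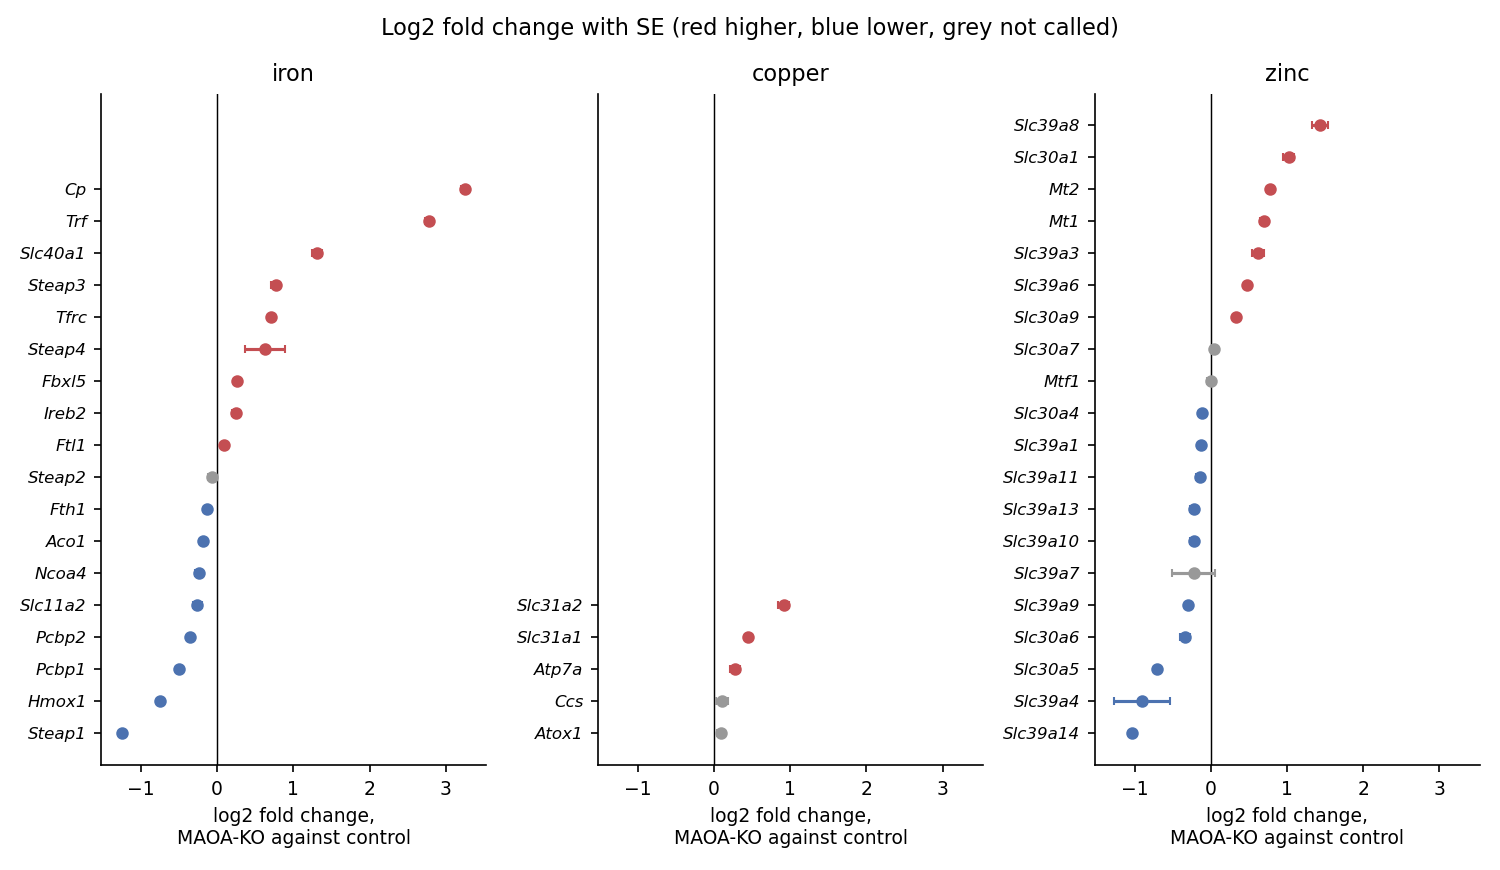
Log2 fold change of MAOA-KO against control for the 43 tested members, by metal, with standard errors as bars; red points passed the test as higher, blue as lower, and grey points did not pass. Cp and Trf lie at 3.25 and 2.78, apart from the other iron genes, the copper transporters all lie above 0, and the zinc genes span -1.03 to 1.43.

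Of the tested members, Cp and Trf, which encode extracellular proteins, rose most in MAOA-KO. Ceruloplasmin (Cp), a secreted copper-containing ferroxidase, rose 9.50-fold and transferrin (Trf), the iron carrier of plasma, 6.87-fold. Ferroportin (Slc40a1), the iron exporter, rose 2.48-fold and the transferrin receptor (Tfrc) 1.64-fold. Steap1 and Hmox1 fell, 2.38-fold and 1.69-fold.

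Cp was measured at 38.0, 38.1 and 39.5 CPM in the controls and at 335, 389 and 374 CPM in MAOA-KO. Each MAOA-KO library lay far above each control, with MAOA-KO replicate 1 the lowest of the 3. The log2 fold change was 3.25 ± 0.05 (SE, n = 3 per group; adjusted p = 3.91e-25, edgeR). Per length, on the deposited FPKM scale, Cp went from 9.13 ± 0.209 to 92.1 ± 6.75 FPKM (mean ± SD), which set it above Steap1 and Hmox1 in MAOA-KO, both of which it lay below in the controls.

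Trf lay at 21.9, 19.6 and 19.6 CPM in the controls and at 142, 135 and 142 CPM in MAOA-KO. The groups were apart, and the spread within each was small beside the gap between them. Its log2 fold change was 2.78 ± 0.05 (adjusted p = 3.48e-24). Of the exonic bases of Trf, 63.5% are shared with the annotated gene Gm20425 on the same strand, and how reads in the shared stretch were counted is not given in the sources used here. Tfrc lay at 75.5, 77.5 and 76.9 CPM in the controls and at 116, 132 and 127 CPM in MAOA-KO, which is a log2 fold change of 0.71 ± 0.05 (adjusted p = 3.26e-13). In the controls the receptor, at 15.2 ± 0.179 FPKM, exceeded the carrier, at 8.45 ± 0.562 FPKM. In MAOA-KO the order was turned, with 26.4 ± 1.67 FPKM for Tfrc and 61.6 ± 1.93 FPKM for Trf.

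Slc40a1, the only known cellular iron exporter of mammals, lay at 9.42, 10.1 and 10.7 CPM in the controls and at 25.4, 24.3 and 25.1 CPM in MAOA-KO. Again the groups did not overlap, and the log2 fold change was 1.31 ± 0.07 (adjusted p = 6.29e-15). Slc11a2 (DMT1), which carries ferrous iron into the cytosol, went the other way by a small amount, from 33.4, 35.4 and 34.9 CPM to 30.5, 28.2 and 28.2 CPM. Its log2 fold change of -0.26 ± 0.05 passed the test (adjusted p = 1.30e-04) but not against a 1.2-fold change (adjusted p = 0.465). Slc40a1 and Hmox1 are both abundant in macrophages. Of 10 macrophage and leukocyte markers only Cd68, Cd14 and Mrc1 had a row, their summed level was 83.4 to 85.9 CPM in the controls and 68.1 to 75.7 CPM in MAOA-KO. Mrc1 fell from 5.88 ± 0.747 to 0.347 ± 0.149 CPM and Cd68 from 53.02 ± 2.47 to 46.2 ± 1.99 CPM, and Cd14, at 25.98 ± 0.767 and 25.2 ± 1.84 CPM, did not pass (adjusted p = 0.477). Their part in the result was not tested.

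**Figure D2:**
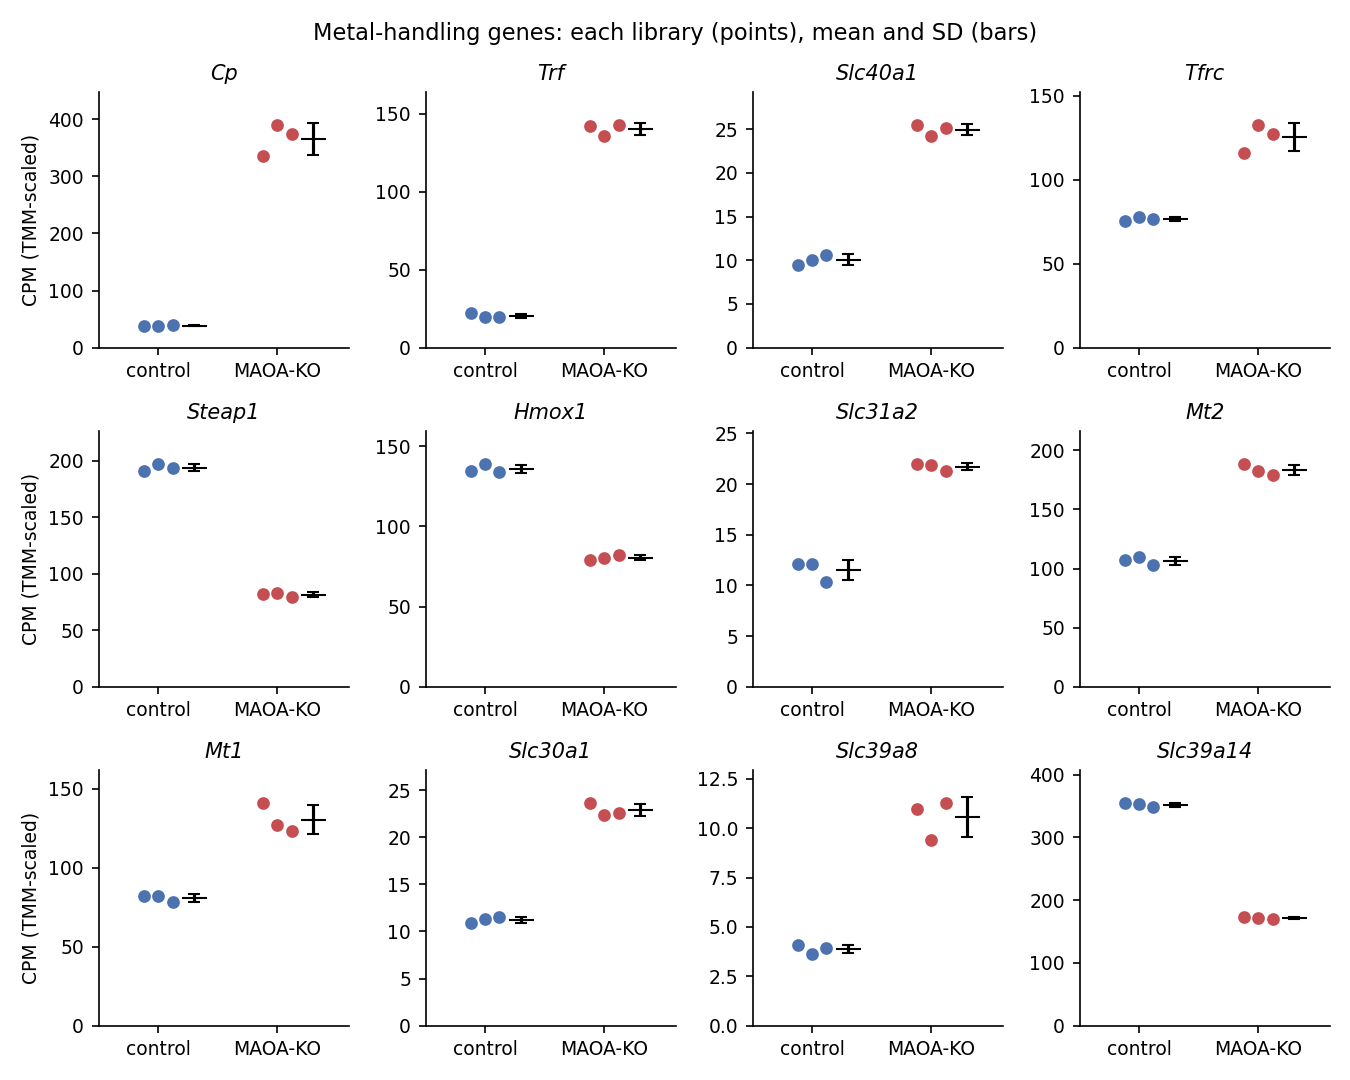
CPM, scaled by TMM factors, of 12 members in each library, with 3 control (blue) and 3 MAOA-KO (red) points per panel, the mean and SD as black bars, and linear axes that start at 0. In each panel the groups are apart: Steap1, Hmox1 and Slc39a14 are lower in MAOA-KO and the other 9 higher. All 12 are called members without overlap, so the separation follows from their choice, and 75.1% of all tested genes do not overlap either.

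The Steap family reduces ferric iron and cupric copper, and its members went in different directions. Steap1, whose product pairs with other family members for its activity, had the highest level per length (FPKM) of the 4 in both groups, while Steap2 had the higher CPM. Steap1 lay at 190, 197 and 194 CPM in the controls and at 82.3, 83.0 and 78.9 CPM in MAOA-KO, all 3 below all controls. Its log2 fold change was -1.25 ± 0.04 (adjusted p = 1.42e-19). Steap3, the endosomal ferrireductase of the transferrin cycle, rose from 12.8 ± 0.252 to 21.7 ± 0.252 CPM, or by 0.77 ± 0.07 on the log2 scale. Steap2 had 250 ± 10.6 and 237 ± 10.8 CPM with overlapping groups (adjusted p = 0.111), and was not called. It passed as lower without control replicate 1 (adjusted p = 0.0191), without MAOA-KO replicate 2 (0.0233) and with the replicate number as a block (0.00761). Within each library the ratio of Steap1 to Steap2 on the FPKM scale was 6.32 to 6.75 in the controls and 2.81 to 3.04 in MAOA-KO. Steap4, at 11 to 35 counts per library, passed the test in edgeR as higher (log2 fold change 0.63 ± 0.26, adjusted p = 0.0342). It did not pass without control replicate 3, its lowest library (log2 fold change 0.29, adjusted p = 0.289), nor without MAOA-KO replicate 1 (adjusted p = 0.0709) or 3 (adjusted p = 0.0875), nor in DESeq2 (adjusted p = 0.115). The authors' deposited table gives Steap4 an adjusted p of 0.115.

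Iron storage genes were by far the most abundant members and changed little. The ferritin light chain Ftl1 lay at 1494, 1523 and 1439 CPM in the controls and at 1684, 1504 and 1557 CPM in MAOA-KO. The groups overlapped, and the log2 fold change of 0.09 ± 0.04 passed narrowly (adjusted p = 0.0385). It did not pass without control replicate 3 (adjusted p = 0.194), without MAOA-KO replicate 1 (0.294) or without MAOA-KO replicate 3 (0.0569), nor with no filter on low counts (0.0615) or in DESeq2 (0.0759). The authors' deposited table has 0.0759 for Ftl1. The heavy chain Fth1, which holds the ferroxidase centre, fell by 0.13 ± 0.04 on the log2 scale (adjusted p = 0.00372), with 1333 ± 44.9 and 1218 ± 61.7 CPM and overlapping groups. With library totals only in place of TMM scaling it did not pass (log2 fold change -0.04, adjusted p = 0.319). The ratio of Fth1 to Ftl1, which no scaling of libraries alters, was 0.577 to 0.590 in the controls and 0.492 to 0.509 in MAOA-KO, with no overlap. Ferritin has processed copies in the genome: the one row of that kind, Ftl1-ps1, held 19 to 30 counts per library. Of the exonic bases of Ftl1, 34.6% overlap other annotated genes. Ncoa4, the receptor that takes ferritin to the lysosome, fell from 115 to 97.3 CPM (log2 fold change -0.24 ± 0.05). It did not pass against a 1.2-fold change (adjusted p = 0.609), and neither did Fth1 or Ftl1.

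The cytosolic iron chaperones fell, the sensors moved slightly in either direction, and the haem-degrading enzyme fell. Pcbp2 lay at 490, 473 and 473 CPM in the controls and at 384, 375 and 366 CPM in MAOA-KO, without overlap (log2 fold change -0.35 ± 0.04). Of its exonic bases, 36.2% overlap other annotated genes, mostly on the opposite strand. Pcbp1, like Pcbp2 an RNA-binding protein that also delivers iron to ferritin, fell by 0.50 ± 0.04 on the log2 scale. Among the sensors, Fbxl5, the iron-binding subunit of the ligase that degrades iron regulatory proteins, lay at 88.0, 94.3 and 90.4 CPM in the controls and at 104, 110 and 113 CPM in MAOA-KO. This was a rise of 0.26 ± 0.04. Ireb2 (IRP2) rose by 0.25 ± 0.05, and Aco1 (IRP1), a cytosolic aconitase when it carries its iron-sulfur cluster, fell by 0.19 ± 0.04. None of the 3 sensors passed against a 1.2-fold change. Hmox1, the inducible haem oxygenase, lay at 135, 139 and 134 CPM in the controls and at 79.2, 80.6 and 82.0 CPM in MAOA-KO, and its log2 fold change was -0.75 ± 0.04 (adjusted p = 5.82e-15).

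Iron regulatory proteins bind hairpins in the untranslated regions of some of these mRNAs. A hairpin in the 5′ UTR lets them block translation, as in ferritin and ferroportin, and hairpins in the 3′ UTR of Tfrc let them stabilise the mRNA. The sites are shown because the members that carry them did not change alike. A C, 5 bases, the loop CAGTGN and 5 bases that can pair with the 5 before the loop (G with T allowed) were searched for together on the transcript strand of GENCODE M21 protein-coding transcripts (GRCm38). This hairpin was found in the 5′ UTR of 31 of 20916 genes, or 0.148%, and in the 3′ UTR of 129 of 21707 genes, or 0.594%. Among the members it was found in 4, printed with 5 bases on either side and the loop in capitals.
Fth1, 5′ UTR, chr19:9982733-9982759, plus strand: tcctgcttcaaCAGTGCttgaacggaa
Ftl1, 5′ UTR, chr7:45459780-45459806, minus strand: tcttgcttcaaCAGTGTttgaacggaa
Slc40a1, 5′ UTR, chr1:45925466-45925492, minus strand: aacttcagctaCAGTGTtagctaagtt
Tfrc, 3′ UTR, chr16:32631220-32631246, plus strand: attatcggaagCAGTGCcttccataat
Tfrc, 3′ UTR, chr16:32631599-32631625, plus strand: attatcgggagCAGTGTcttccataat
Tfrc, 3′ UTR, chr16:32631664-32631690, plus strand: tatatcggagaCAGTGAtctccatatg
Tfrc, 3′ UTR, chr16:32631711-32631737, plus strand: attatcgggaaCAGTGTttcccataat
Fth1, Ftl1 and Slc40a1 hold 1 site each and Tfrc 4. Tfrc rose by 0.71 and Slc40a1 by 1.31 on the log2 scale, while the ferritin chains changed by -0.13 and 0.09. A match to the letters does not show binding, and changes in translation are not measured by mRNA counts. Hairpins with a bulge or mismatch in these 5 pairs would be missed. A member without a match, such as Slc11a2, may therefore still carry one.

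**Figure D3:**
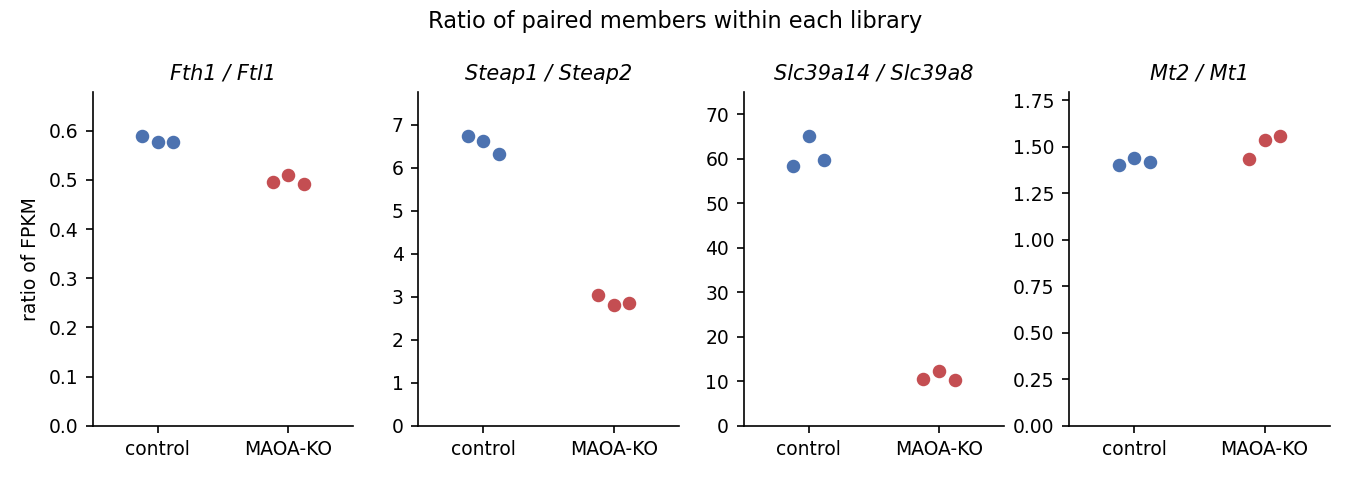
Ratio of deposited FPKM between paired members within each library, with 3 control (blue) and 3 MAOA-KO (red) points per panel and axes that start at 0. The ratios of Fth1 to Ftl1, Steap1 to Steap2 and Slc39a14 to Slc39a8 are lower in every MAOA-KO library, and that of Mt2 to Mt1 overlaps between the groups.

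The 3 copper transporters tested were all higher in MAOA-KO, and the copper chaperones did not pass the test. Of the 5 copper members tested 3 were thus called, or 60%, against 73.9% of all genes, of which 37.0% were higher. Slc31a2 (CTR2), which promotes release of copper from endosomes and lysosomes, lay at 12.1, 12.1 and 10.3 CPM in the controls and at 22.0, 21.9 and 21.3 CPM in MAOA-KO. The groups did not overlap, and the log2 fold change was 0.92 ± 0.07 (adjusted p = 1.69e-11). Slc31a1 (CTR1), the high-affinity copper importer, lay at 57.1, 64.3 and 63.3 CPM and at 82.3, 86.5 and 83.6 CPM, a rise of 0.45 ± 0.05 (adjusted p = 3.72e-09). Atp7a, the pump that loads copper enzymes in the Golgi and exports copper, rose by 0.28 ± 0.07 (adjusted p = 7.13e-04), but not against a 1.2-fold change (adjusted p = 0.326). Atox1, the chaperone that hands copper to Atp7a, lay at 35.5, 37.6 and 35.7 CPM in the controls and at 41.8, 37.8 and 36.4 CPM in MAOA-KO, with overlap (log2 fold change 0.09 ± 0.05, adjusted p = 0.133). Ccs, which delivers copper to superoxide dismutase Sod1, had a log2 fold change of 0.11 ± 0.08 (adjusted p = 0.200). With library totals only, both chaperones passed as higher, with adjusted p of 0.00473 for Atox1 and 0.0219 for Ccs, and Atox1 passed with upper-quartile factors too (0.0368). Without MAOA-KO replicate 2, Ccs passed as well (log2 fold change 0.22, adjusted p = 0.00602).

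Both metallothioneins rose in MAOA-KO. Mt2 lay at 108, 110 and 103 CPM in the controls and at 188, 182 and 180 CPM in MAOA-KO, with a log2 fold change of 0.78 ± 0.04 (adjusted p = 2.67e-15). Mt1 lay at 82.3, 81.9 and 78.1 CPM and at 141, 127 and 124 CPM, with a log2 fold change of 0.69 ± 0.05 (adjusted p = 7.32e-13). For each gene every MAOA-KO library lay above every control, and MAOA-KO replicate 1 was the highest. Together they went from 345 ± 9.82 to 614 ± 27.6 FPKM. An antisense gene, Gm45774, overlaps 73.5% of the exonic bases of Mt2 on the opposite strand and held 4 to 32 counts per library. The strand setting is not given in the sources used here, so the count of Mt2 may hold only part of its reads. Mtf1, the zinc-sensing factor that activates metallothionein genes, lay at 31.9, 33.1 and 32.9 CPM in the controls and at 31.6, 33.0 and 33.2 CPM in MAOA-KO. These groups overlapped (log2 fold change 0.00 ± 0.05, adjusted p = 0.967).

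Slc30a1 (ZnT1), the zinc exporter of the plasma membrane and like the metallothioneins a known target of Mtf1, rose with them. It lay at 10.9, 11.4 and 11.5 CPM in the controls and at 23.6, 22.4 and 22.6 CPM in MAOA-KO, without overlap. The log2 fold change was 1.02 ± 0.07 (adjusted p = 5.21e-13). Mtf1 binds metal response elements. The promoters of these 3 genes are given with matches to TGCACNC or TGCGCNC on either strand in capitals. The windows are those of RefSeq on GRCm38.p6, from 250 bases before to 50 after its start site, printed on the gene's own strand.
Mt2, chr8:94172368-94172667, plus strand: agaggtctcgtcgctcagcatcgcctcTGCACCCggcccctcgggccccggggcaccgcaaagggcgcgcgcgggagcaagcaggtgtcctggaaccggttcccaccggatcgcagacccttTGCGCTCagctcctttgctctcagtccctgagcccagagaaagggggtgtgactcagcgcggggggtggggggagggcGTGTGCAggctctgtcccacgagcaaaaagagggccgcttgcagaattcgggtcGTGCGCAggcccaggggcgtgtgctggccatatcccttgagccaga
Mt1, chr8:94178839-94179138, plus strand: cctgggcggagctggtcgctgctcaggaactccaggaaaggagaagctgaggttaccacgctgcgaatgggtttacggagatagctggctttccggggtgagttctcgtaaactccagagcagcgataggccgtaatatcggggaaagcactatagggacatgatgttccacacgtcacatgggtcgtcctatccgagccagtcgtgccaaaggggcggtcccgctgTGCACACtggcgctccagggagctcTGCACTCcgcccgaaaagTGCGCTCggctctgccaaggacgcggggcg
Slc30a1, chr1:191906531-191906830, plus strand: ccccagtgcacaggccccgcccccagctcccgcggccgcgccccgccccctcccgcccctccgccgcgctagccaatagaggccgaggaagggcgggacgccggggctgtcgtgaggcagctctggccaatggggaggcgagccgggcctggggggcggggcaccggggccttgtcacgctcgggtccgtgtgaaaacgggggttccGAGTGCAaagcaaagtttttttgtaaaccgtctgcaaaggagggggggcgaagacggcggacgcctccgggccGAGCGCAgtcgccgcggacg
The windows hold 4 matches in Mt2, 3 in Mt1 and 2 in Slc30a1, where both are on the reverse strand. Slc30a1 was printed in place of the members with the largest absolute log2 fold change of each metal, whose windows held fewer. These were Cp with 0 in each of its windows, Slc31a2 with 1, and Slc39a8 with 0 and 1. The printed windows were thus picked in part for their matches, and do not show that matches go with a rise. Of all 32851 windows 25.7% hold at least 1 match, 7.11% at least 2 and 1.97% at least 3. Windows were found for 36 of the 45 members, 50 windows in all, of which 20 held at least 1 match. A window with at least 2 matches was found for 6 members: Mt1, Mt2, Slc30a1, Atp7a and Tfrc, which were called higher, and Slc30a4, which was called lower. The window of Slc30a4, not printed, holds 3. Of all tested genes 37.0% were called higher and 36.9% lower. Members with several windows were counted by their fullest one, so this count cannot be set against the shares per window. Whether matches go with the direction of change was not tested. These are matches to letters, and binding was not measured.

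The ZIP importers moved apart, with 3 of 11 tested higher and 7 lower, where the shares over all tested genes are 37.0% and 36.9%. Slc39a14 and Slc39a8, closely related members that carry iron and manganese as well as zinc, moved in opposite directions. Slc39a14 (ZIP14) fell from 354, 353 and 349 CPM to 173, 172 and 171 CPM, with a log2 fold change of -1.03 ± 0.04 (adjusted p = 8.68e-19). Slc39a8 (ZIP8) rose from 4.08, 3.65 and 3.93 CPM to 10.999, 9.39 and 11.3 CPM, with a log2 fold change of 1.43 ± 0.11 (adjusted p = 4.66e-12). Neither gene's groups overlapped. The ratio of Slc39a14 to Slc39a8 on the FPKM scale was 58.4 to 65.2 in the controls and 10.2 to 12.3 in MAOA-KO, so Slc39a14 stayed the more abundant.

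Among the other ZIP genes, Slc39a3 rose from 11.4 ± 0.643 to 17.6 ± 1.46 CPM (log2 fold change 0.62 ± 0.08) and Slc39a6 from 91.0 ± 1.04 to 126 ± 2.83 CPM (0.47 ± 0.04). Both encode importers, of which Slc39a6 is regulated by oestrogen in breast cells. Slc39a1, Slc39a9, Slc39a10, Slc39a11 and Slc39a13 fell by 0.13 to 0.29 on the log2 scale, and none of these 5 passed against a 1.2-fold change. Slc39a10, the ZIP gene with the highest deposited FPKM, lay at 66.5, 71.7 and 68.6 CPM in the controls and at 55.5, 61.7 and 59.5 CPM in MAOA-KO. With library totals only, Slc39a1 and Slc39a11 did not pass (log2 fold changes -0.05 and -0.06), nor did Slc39a11 with upper-quartile factors (-0.10, adjusted p = 0.0699). Slc39a4, the intestinal importer, had 3 to 23 counts per library and a log2 fold change of -0.91 ± 0.37 (adjusted p = 0.0295), with overlapping groups. It was lost without control replicate 1 or 3 (adjusted p = 0.0723 and 0.0973) and without MAOA-KO replicate 2 or 3 (0.107 and 0.154) and in DESeq2 (0.101), and has 0.101 in the authors' deposited table. Slc39a7, which releases zinc from the endoplasmic reticulum, had 13 to 27 counts per library and did not pass (adjusted p = 0.480). Of its exonic bases 80.7% are shared with the same-strand gene Gm20427, so its count may hold only part of its reads.

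The ZnT transporters likewise moved in both directions, with 2 of 6 tested higher and 3 lower. Over all tested genes 37.0% were higher and 36.9% lower, so this split is not particular to the family. Beside Slc30a1, Slc30a9, linked to mitochondrial zinc, rose from 90.9 ± 3.79 to 115 ± 3.36 CPM (log2 fold change 0.33 ± 0.04). Slc30a5 and Slc30a6, whose products form a dimer that supplies zinc to enzymes of the secretory pathway, both fell. Slc30a5 went from 134 ± 5.88 to 82.0 ± 3.15 CPM (log2 fold change -0.71 ± 0.04, adjusted p = 1.38e-13) and Slc30a6 from 26.5 to 20.9 CPM (-0.34 ± 0.06). Slc30a6 did not pass against a 1.2-fold change (adjusted p = 0.0795), nor did Slc30a4, described below. Slc30a7, a further transporter of the Golgi, did not pass (0.05 ± 0.04, adjusted p = 0.325). With library totals only it passed as higher (log2 fold change 0.13, adjusted p = 0.00775). Slc30a4, the most abundant ZnT gene, lay at 481, 505 and 513 CPM in the controls and at 435, 476 and 469 CPM in MAOA-KO. The gap between the groups was narrow, and the log2 fold change of -0.12 ± 0.04 (adjusted p = 0.00836) did not pass with library totals only (adjusted p = 0.460), with upper-quartile factors (0.0607) or without MAOA-KO replicate 1 (0.0597).

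The order of levels between transporters depends on the length behind the FPKM. The deposited values imply a length of 565 bases for Slc39a10, whose longest coding transcript has 5498, and of 1326 bases for Slc30a7, whose longest has 9020. Steap3 and Slc31a2 are the other members whose implied length is under 50% of that transcript. On the deposited scale Slc39a10 led the ZIP genes in the controls at 118 ± 4.28 FPKM, ahead of Slc39a14 at 69.3 ± 0.543, Slc39a1 at 60.6 ± 2.61, Slc39a13 at 24.1 ± 0.753 and Slc39a6 at 22.7 ± 0.206 FPKM. With the longest coding transcript Slc39a10 had 12.2 ± 0.440 FPKM and came sixth, and Slc39a14 led. In MAOA-KO Slc39a1, at 58.7 ± 1.85 FPKM, exceeded Slc39a14, at 35.9 ± 0.336 FPKM, and Slc39a6 exceeded Slc39a13. Neighbours in the deposited order of 12 ZIP genes did not overlap in the controls, and in MAOA-KO those that overlapped were the low Slc39a7, Slc39a4 and Slc39a2. Summed over the ZIP genes, the level was 331 ± 3.42 FPKM in the controls and 295 ± 1.17 FPKM in MAOA-KO, and 225 ± 3.26 and 198 ± 3.72 FPKM with the longest coding lengths, lower in MAOA-KO without overlap on either scale. On FPKM, Slc39a14 alone went from 69.3 to 35.9 with both lengths, which is most of the first difference and more than the second. The sums thus do not describe the family as a whole. FPKM carries no TMM factor, and these factors were 0.968 to 0.972 in the controls and 1.03 in each MAOA-KO library. Differences in summed FPKM between the groups, and the part of Slc39a14 in them, would therefore change with TMM scaling, which was not applied. The summed ZnT level was 212 ± 6.32 FPKM in the controls and 207 ± 4.58 FPKM in MAOA-KO, with overlap. TMM scaling would lower the MAOA-KO sums relative to the controls, so this overlap is stated for FPKM only.

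**Figure D4:**
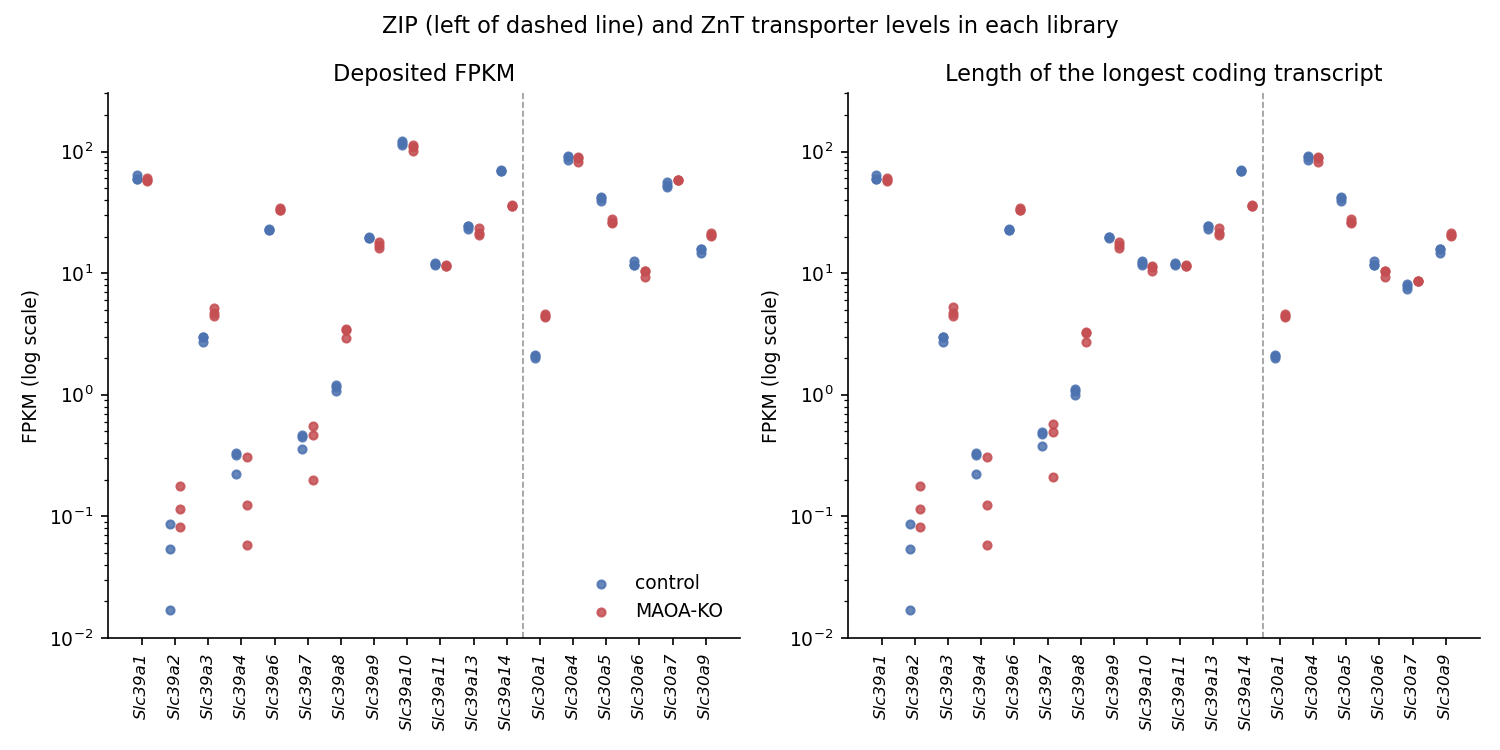
Level of 12 ZIP genes (left of the dashed line) and 6 ZnT genes in each control (blue) and MAOA-KO (red) library, in FPKM on a log axis, with the deposited lengths on the left and the longest coding transcript on the right. Slc39a10 and Slc30a7 drop between the panels, while the differences between the groups are the same in both.

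Other genes of these pathways were read from 7 separate lists, in which 57.1% to 87.5% of the tested genes were called, against 73.9% of all genes. Of all tested genes 37.0% were higher and 36.9% lower, and whether a list leans in one direction was not tested. Of 19 tested genes of haem synthesis and transport 5 were higher and 7 lower (median log2 fold change -0.04, against 0.0041 over all genes). Cpox, the mitochondrial coproporphyrinogen oxidase, fell from 209 ± 3.39 to 70.4 ± 4.14 CPM. Flvcr2, a membrane transporter of the haem exporter family, rose from 0.197 ± 0.0546 to 1.87 ± 0.372 CPM. It held only 4 to 6 counts per control library, so the size of its rise is uncertain. Of 32 tested genes of iron-sulfur cluster assembly 6 were higher and 15 lower (median -0.12). Among them Nfu1, a late-acting cluster carrier, fell by 0.71 ± 0.05 on the log2 scale, the glutaredoxin Glrx5 by 0.68 ± 0.06 and the mitochondrial iron importer Slc25a28 by 0.59 ± 0.05.

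Of 8 tested genes of systemic iron regulation 2 were higher and 4 lower (median -0.32), where the shares over all tested genes are 37.0% and 36.9%. Erfe, the hormone that lowers hepcidin, went from 7.73 ± 0.123 to 1.49 ± 0.250 CPM, Bmp2 from 8.77 ± 1.04 to 1.65 ± 0.333 CPM and the BMP-responsive Id1 from 48.6 ± 1.21 to 23.3 ± 1.52 CPM. Hamp, which encodes hepcidin, was not analysed here. Of 12 other iron uptake and binding genes 7 were higher and 3 lower (median 0.37). Some of the higher ones held few counts, down to 4 in a control library, so the size of their rise is uncertain. Epas1 (HIF-2alpha), whose mRNA is itself under iron control, rose from 5.95 ± 0.866 to 15.8 ± 0.637 CPM. The reductase Frrs1 rose from 114 ± 1.02 to 165 ± 0.728 CPM, and Pcbp3 fell by 0.90 ± 0.07 on the log2 scale.

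Of 9 genes of mitochondrial copper delivery 3 were higher and 3 lower (median 0.05), where the shares over all tested genes are 37.0% and 36.9%. Cmc2, an assembly factor of cytochrome oxidase, fell by 0.75 ± 0.08 and the phosphate and copper carrier Slc25a3 by 0.20 ± 0.03 on the log2 scale, and the chaperone Cox17 rose by 0.74 ± 0.16. The fall of Slc25a3 did not pass against a 1.2-fold change. Of 8 tested copper-dependent enzymes 2 were higher and 5 lower (median -0.35). The peptide-amidating enzyme Pam fell from 295 ± 7.95 to 225 ± 3.84 CPM and the lysyl oxidases Loxl3 and Loxl4 by 0.66 ± 0.07 and 0.36 ± 0.04 on the log2 scale. Of 7 other zinc genes 3 were higher and 1 lower (median 0.43). The lysosomal cation channel Mcoln1 rose from 36.1 ± 0.823 to 67.4 ± 1.44 CPM and the channel kinase Trpm7 from 112 ± 4.74 to 159 ± 9.28 CPM, while the zinc-sensing receptor Gpr39 fell from 62.8 ± 0.649 to 44.9 ± 1.62 CPM.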

How the data were processed

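RNA-seq values of 6 libraries, 3 control and 3 MAOA-KO, were taken from 1 deposited table. Its whole-number counts per gene and its FPKM were made by the authors, whose own comparison adds p-values, raw and adjusted, their −log10 and a log2 fold change, per the file headers. The submitters' processing notes name mm10, and the headers place genes on GRCm38.p6. The sources used here do not give the aligner, counter or strand setting. From the counts, edgeR 4.0.16 in R 4.3.3 was run over the whole table: filterByExpr (13243 of 15836 genes tested), TMM scaling, a robust quasi-likelihood fit with group as its term, and Benjamini-Hochberg adjustment over all tested genes at 0.05. SE was taken as the log2 fold change over the square root of F, and errors of CPM and FPKM are SDs over 3 libraries. FPKM was used for levels between genes, with the length implied by counts and FPKM checked against GENCODE M21. FPKM carries no TMM factor. The test was also run on simulated counts with a common spread for all genes and few changed genes. These data differ in both, so that run does not show how the scaling or the error rate behave here. Alternatives were RLE, upper-quartile or no scaling factors, DESeq2 1.42.0, no filter, a test against 1.2-fold, leaving out each library, and the replicate number as a block. Levels with the longest coding transcript were added after seeing the data. Library totals ran from 18631359 to 26645441.

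The members, lists and naming rule were chosen with earlier results of these data known. Values in all libraries are given for called members with an absolute log2 fold change of at least 1 and for the member with the highest mean FPKM in each role. Values of Tfrc, Mt1 and Slc31a1 beyond that rule were added after they were seen. Of each list up to 3 genes by lowest p are named, and further ones only as not analysed. One gene that this rule would name is not reported here.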

Additional observations from a re-analysis of the deposited data

How the results depend on the processing

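Over all genes, 9781 were called in the main comparison, and 6079 (3120 higher, 2959 lower) against a 1.2-fold change, which asks for more. That test called 9 iron genes (5 higher, 4 lower), 9 zinc genes (2 lower) and 2 copper genes. With library totals only, all 5 tested copper genes were called, each as higher, and among all genes 5759 were higher and 4044 lower, against 4900 and 4881. That setting moved the median log2 fold change of all genes from 0.0041 to 0.0905. Without 1 library, calls over the table ran from 9357 to 9772, with 15 to 18 for iron, 3 to 4 for copper and 16 to 17 for zinc. Of 559 repeats of the 43 tested members under 13 settings, 507 kept direction and side of the threshold, 38 lost the call, 17 of them against a 1.2-fold change, 8 gained one and 6 reversed. The reversals were of uncalled genes: Steap2 with library totals only (log2 fold change 0.014), Mtf1 with library totals only (0.084), with upper-quartile factors (0.035) and without 1 library (-0.022 to 0.019), and Slc39a7 without MAOA-KO replicate 2 (-0.49 to 0.17 over the libraries left out). The causes were not tested. Same-numbered samples deviated together at correlations of 0.200, 0.104 and 0.0708, and control replicate 3 correlated more with MAOA-KO replicate 2 (0.119), so the numbers were not taken as a pairing. With the replicate block 10205 genes were called, 18 of them iron genes, and among the members only the call of Steap2 changed. With the longest coding lengths, chosen after seeing the data, summed ZnT levels were 167 and 157 FPKM, and summed ZIP levels moved as given above. Values near 0.110 to 0.156 CPM, the level of 3 counts, rest on few reads. The filter on low counts, which left Atp7b and Slc39a2 untested, acts above that level. Slc39a2 lay at 0.183, 0.402 and 0.261 CPM in MAOA-KO.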
